A study of Mus musculus with 2 samples.

Results

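The 9 genes described here encode intermediate filament proteins of glia and neurons in the mouse striatum. They comprise 4 glial genes (*Gfap*, *Vim*, *Nes* and *Synm*) and 5 neuronal genes (*Nefl*, *Nefm*, *Nefh*, *Ina* and *Prph*), out of 37074 genes with a probe on the array. Members were taken by name, as every probe other than a control whose gene symbol is one of these 9. This gave 16 probes, each printed as 1 spot. Of these, 13 were well above background on both arrays, and they covered 8 of the 9 genes.

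Striatal RNA was measured in 2 genotypes on day 1 after the last injection of MPTP, a toxin that destroys dopaminergic neurons. WT mice carried the strain label C57BL/6J, and connexin 30 (Cx30) KO mice, called the KO below, carried the strain label Cx30-LacZ. Per the methods, both genotypes came from heterozygous parents, the WT mice being their non-mutant offspring. All mice were male and 8 weeks old, and MPTP was given 4 times at 20 mg/kg, 2 h apart. Each genotype was measured on 1 single-colour array that held the pooled striata of 2 mice. Cx30 is a gap junction protein of astrocytes, and the KO mice lacked its gene product in all cells. Mice without MPTP are not analysed here, so the values compare genotypes after the toxin and give no response to it.

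With 1 array for each genotype there is no replicate check, and no test between genotypes was possible. Other measures of error stand in for it below. The scanner software gives an error for each spot, written here after ±. The log2 ratio of Cx30 KO over WT had a median SD of 0.03 between the spots of a probe, over 298 probes printed 10 times or more. Between different probes of the same gene it had an SD of 0.26, over 7147 genes. None of these covers differences between mice. The study's own criteria were used to call a gene lower (Z-score of −2.0 or less and ratio of 0.66 or less) or higher (Z-score of 2.0 or more and ratio of 1.5 or more). The Z-score is the distance of a log2 ratio from the mean of the 1000 probes nearest in signal, in SDs of those probes. Among 22012 detected genes the share of lower genes was 3.39% and that of higher genes 2.37%, and the median log2 ratio was 0.03.

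*Gjb6*, the gene that encodes Cx30, checked the labels. Its brighter probe had a signal of 1788 ± 179 in WT and 111 ± 11.6 in the KO, which was 15.4-fold lower after scaling. Its other probe rose above background in WT alone, a level at least 4.33-fold lower in the KO. All 12 markers of striatal projection neurons were detected on both arrays. Among them were *Ppp1r1b*, *Penk* and *Drd1*, named after their values were seen.

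Intermediate filaments are ropes of coiled-coil proteins that give cells mechanical strength. In astrocytes the main subunit is GFAP, which assembles with vimentin and, in immature or reactive cells, with nestin. Synemin joins such filaments as a minor partner. A rise of GFAP and vimentin is the classic sign of astrocyte reactivity. In neurons the light, medium and heavy neurofilament chains assemble with α-internexin in axons, where they set axon calibre, and peripherin is the subunit of peripheral and a few central neurons.

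The upstream sequences of the 4 glial genes are shown because the members of this group differed from each other in the KO. Each run is the 250 bases before the RefSeq start of the gene (GRCm38.p6), read 5′ to 3′ on the strand of the gene. *Gfap* lies at chr11:102897201-102897450 on the minus strand, *Vim* at chr2:13574061-13574310 on the plus strand, *Nes* at chr3:87970843-87971092 on the plus strand, and *Synm* at chr7:67759743-67759992 on the minus strand. Capitals mark matches, on either strand, to 5 motifs: TTCNNNGAA (STAT), TTGGC (NFI), TGANTCA (AP-1), GGGCGG (SP1) and the core promoter box TATAAA.
Gfap: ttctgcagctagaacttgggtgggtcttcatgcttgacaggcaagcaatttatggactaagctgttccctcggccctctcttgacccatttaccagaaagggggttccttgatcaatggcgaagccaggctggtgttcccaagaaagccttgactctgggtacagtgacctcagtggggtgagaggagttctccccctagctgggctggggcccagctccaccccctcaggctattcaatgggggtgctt
Vim: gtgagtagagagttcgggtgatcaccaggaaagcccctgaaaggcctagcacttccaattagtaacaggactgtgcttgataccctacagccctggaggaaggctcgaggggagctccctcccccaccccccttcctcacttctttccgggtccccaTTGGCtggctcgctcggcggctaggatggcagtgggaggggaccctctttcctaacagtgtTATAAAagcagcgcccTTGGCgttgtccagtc
Nes: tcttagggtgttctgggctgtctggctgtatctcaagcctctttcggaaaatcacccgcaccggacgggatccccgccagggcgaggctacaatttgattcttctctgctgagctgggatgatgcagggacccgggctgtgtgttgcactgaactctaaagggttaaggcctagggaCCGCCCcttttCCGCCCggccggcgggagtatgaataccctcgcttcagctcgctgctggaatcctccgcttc
Synm: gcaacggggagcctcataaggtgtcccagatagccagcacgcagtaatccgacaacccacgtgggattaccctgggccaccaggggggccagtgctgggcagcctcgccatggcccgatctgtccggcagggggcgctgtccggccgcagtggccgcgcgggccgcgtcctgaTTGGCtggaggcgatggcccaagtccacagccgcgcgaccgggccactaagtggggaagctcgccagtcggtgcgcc

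The *Vim* sequence held TATAAA with its first base at −32 from the start, and TTGGC at −93 and −16. The *Nes* sequence held GGGCGG on the other strand at −73 and −62, and the *Synm* sequence held TTGGC at −77. None of the 5 motifs had a match in the *Gfap* sequence, which says only that these letters are absent from this window. No motif was shared by the 3 glial genes that were lower in the KO. Over all 32851 promoters in the RefSeq table, the same window held STAT in 7.02%, NFI in 41.5%, AP-1 in 6.75%, the TATA box in 12.4% and SP1 in 32.7%. The GC content was 55.6% for *Gfap*, 58.4% for *Vim*, 58.8% for *Nes* and 70.0% for *Synm*, against a median of 52.4% over all promoters. Sequences of this kind were matched for 6 of the 9 members, the other 2 being *Ina* and *Prph*. *Prph* also held TATAAA, at −31.

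Of the 4 glial filament genes, 3 were lower in the KO (*Gfap*, *Vim* and *Nes*), 0 were higher, and *Synm* met neither criterion. The call of *Nes* depended on the criteria, as given below. The median log2 ratio of the 4 genes was −1.06. Fewer cells of a type and less RNA per cell cannot be told apart in RNA of whole tissue.

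*Gfap*, which encodes the defining filament protein of astrocytes, had 2 probes (chr11:102751813-102751872 and chr11:102748864-102748923 of mm9, minus strand) that carry different RefSeq transcripts. The first had a signal of 6091 ± 609 in WT and 1881 ± 188 in the KO. The second had 6043 ± 604 in WT and 1629 ± 163 in the KO. Both probes were therefore several scanner errors lower in the KO, and the ranges of the genotypes did not overlap. After scaling, their log2 ratios were −1.62 and −1.82, or 3.08-fold and 3.53-fold lower, with Z-scores of −5.80 and −6.51. The 2 ratios lay 0.20 apart, which is within the probe-to-probe SD. Of all detected genes, 331 (1.5%) had a lower log2 ratio than the brighter *Gfap* probe.

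*Vim*, which encodes vimentin, had 1 probe (chr2:13504232-13504291 of mm9, plus strand), with a signal of 2758 ± 276 in WT and 967 ± 96.8 in the KO. Its log2 ratio was −1.44 (2.71-fold lower, Z-score −4.98), and 366 genes had a lower log2 ratio. *Nes*, which encodes nestin, a filament of neural progenitors that astrocytes can express again after injury, had a signal of 983 ± 98.4 in WT and 582 ± 58.3 in the KO. The scanner errors of the arrays did not overlap for either gene. The *Nes* log2 ratio was −0.68 (1.61-fold lower, Z-score −2.31), close to both limits of the criteria, and it rests on 1 probe (chr3:87784308-87784367 of mm9, plus strand). With a Z-score over all probes, or with ratio limits of 2 and 0.5, *Nes* was no longer called lower.

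*Synm*, which encodes synemin, had a signal of 720 ± 72.2 in WT and 715 ± 71.7 in the KO at its brighter probe. Its dimmer probe had 65.9 ± 7.87 in WT and 67.8 ± 7.79 in the KO. At both probes the arrays lay within the scanner error of each other. The log2 ratios were 0.06 and 0.11, each smaller than the probe-to-probe SD.

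**Figure D1:**
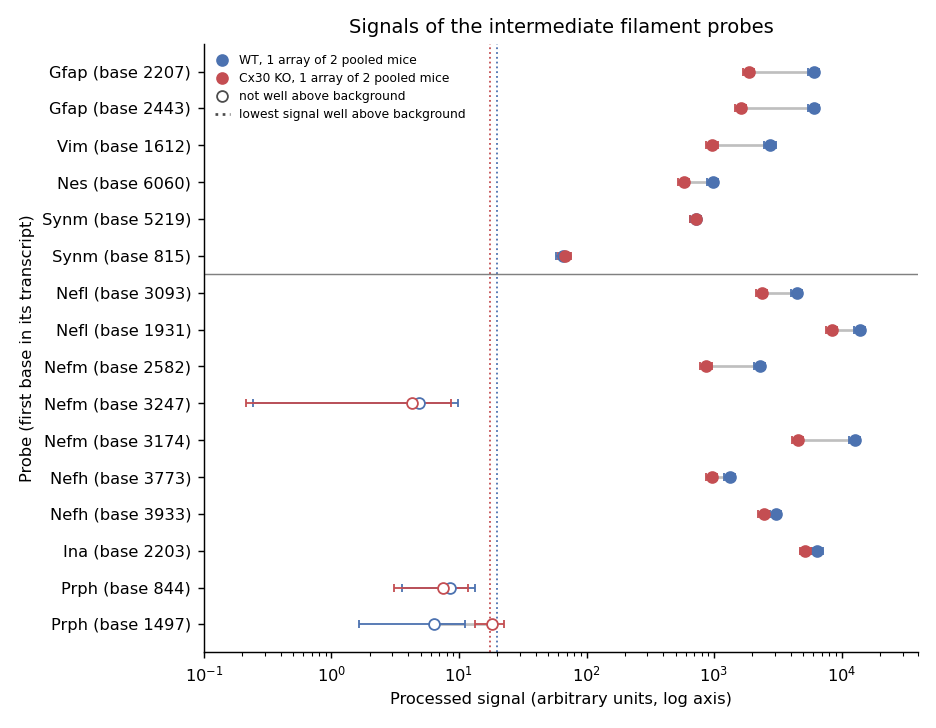
Processed signal (arbitrary units, log axis) of each of the 16 probes for the 9 filament genes in WT (blue) and Cx30 KO (red), 1 array each, with the scanner error of the spot as bars. Glial genes are above the line and neuronal genes below it. Open circles are not well above background. At both Gfap probes, the Vim probe and 2 of 3 Nefm probes the arrays lie far apart, at both Synm probes they coincide, and both Prph probes and 1 Nefm probe are at background.

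Of the 5 neuronal filament genes, 4 were detected. *Nefl* and *Nefm* were lower in the KO, 0 were higher, and *Nefh* and *Ina* met neither criterion. The median log2 ratio of the 4 detected genes was −0.45, and all 4 ratios were below 0. Without the filter on dim probes, which adds *Prph*, the median was −0.24.

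*Nefm*, which encodes the medium neurofilament chain, had the lowest ratio of the neuronal genes. Its brightest probe (chr14:68737598-68737657 of mm9, minus strand) had a signal of 12732 ± 1273 in WT and 4545 ± 455 in the KO. A second probe (chr14:68738193-68738252) had 2289 ± 229 in WT and 868 ± 86.9 in the KO. Both were lower in the KO by more than the scanner errors, with log2 ratios of −1.41 and −1.33 (2.67-fold and 2.51-fold lower) and Z-scores of −6.37 and −4.79. The third probe (chr14:68737367-68737426), annotated to another transcript, was not well above background on either array, with signals of 4.89 ± 4.91 in WT and 4.32 ± 4.34 in the KO, so it gives no ratio.

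*Nefl*, which encodes the light chain on which neurofilaments are built, had a signal of 13977 ± 1398 in WT and 8413 ± 841 in the KO at its brighter probe (chr14:68705725-68705784 of mm9, plus strand). Its other probe (chr14:68706866-68706925) had 4454 ± 445 in WT and 2357 ± 236 in the KO. The arrays did not overlap within the scanner errors at either probe. The log2 ratios were −0.66 and −0.85, or 1.58-fold and 1.80-fold lower, with Z-scores of −3.19 and −3.09. The ratio of the brighter probe, 0.632, lay close to the limit of 0.66, and with a Z-score over all probes *Nefl* was no longer called lower.

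*Nefh*, which encodes the heavy chain, had a signal of 3034 ± 303 in WT and 2469 ± 247 in the KO at its brighter probe. Its other probe had 1338 ± 134 in WT and 957 ± 95.8 in the KO. The log2 ratios were −0.23 and −0.41, and the larger of them had a Z-score of −1.47. *Ina*, which encodes α-internexin, had a signal of 6461 ± 646 in WT and 5195 ± 519 in the KO, with a log2 ratio of −0.24 and a Z-score of −1.04. At these 3 probes the KO was the dimmer array, and the ratios did not reach the limit. The scanner errors of the arrays did not overlap in the unscaled signals, but after scaling they overlapped at the brighter *Nefh* probe and the *Ina* probe, and at no detected probe of the 5 lower genes. *Prph*, which encodes peripherin, was not well above background at either probe, with signals of 8.46 ± 4.87 and 6.40 ± 4.75 in WT and 7.46 ± 4.37 and 18.0 ± 4.57 in the KO. The lowest signals called well above background on the arrays were 19.8 in WT and 17.4 in the KO, and the call also depends on the spot, so *Prph* was not detectable here rather than absent.

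A probe of a member that was lower and one of a member that was not are printed to show what was measured. Both are 60-mers from the array file, given 5′ to 3′, and each is free of stop codons in at least 1 reading frame. The *Nefm* probe starts at base 2582 of its transcript and has a GC content of 45%, and the *Synm* probe starts at base 815 (chr7:74903754-74903813 of mm9, minus strand) and has a GC content of 68.3%.
Nefm: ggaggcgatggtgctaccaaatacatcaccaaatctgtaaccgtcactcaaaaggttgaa
Synm: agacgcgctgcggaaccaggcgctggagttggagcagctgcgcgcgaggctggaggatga

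In order of their log2 ratios, the 8 detected members ran from *Gfap* (−1.62) through *Vim* (−1.44), *Nefm* (−1.41), *Nes* (−0.68), *Nefl* (−0.66), *Ina* (−0.24) and *Nefh* (−0.23) to *Synm* (0.06). The difference between 2 genes' ratios has an SD of 0.36 if each varies as probes of a gene do. By this measure *Gfap*, *Vim* and *Nefm* did not differ from each other beyond the spread, nor did *Nes* from *Nefl*, nor did *Synm*, *Nefh* and *Ina* from each other. All other pairs lay further apart than 1 such SD. Each family was divided within itself. *Gfap* lay 1.68 below its partner *Synm* on the log2 scale, and *Nefm* lay 0.75 below *Nefl* and 1.19 below *Nefh*. The difference of the medians, glial minus neuronal, was −0.61. This spacing of the members was examined after their values were seen.

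The ratios depended little on the processing. Over 7 other ways of scaling, filtering or combining probes, and the other detected probe where a gene had one, *Gfap* ran from −1.82 to −1.59 and *Vim* from −1.49 to −1.37. *Nes* ran from −0.73 to −0.62 and *Synm* from 0.01 to 0.11. Among the neuronal genes *Nefm* ran from −1.46 to −1.33, *Nefl* from −0.85 to −0.64, *Nefh* from −0.41 to −0.22 and *Ina* from −0.29 to −0.24. No range crossed 0. The 5 genes that were lower remained so in all 7 alternatives. Not all of these were separate checks. Both changes of the background filter left the ratios of the detected members as they were, since these were well above background on both arrays. The authors' normalised values nearly repeated those of quantile normalisation. With a Z-score over all probes, or with ratio limits of 2 and 0.5, only *Gfap*, *Vim* and *Nefm* among the members were lower.

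**Figure D2:**
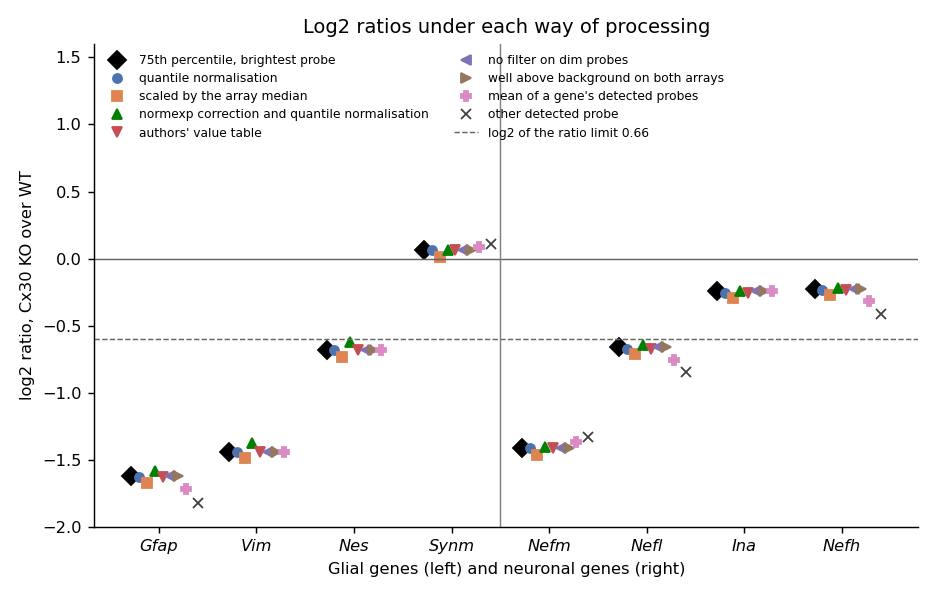
Log2 ratio of Cx30 KO over WT for the 8 detected members under each way of processing, with glial genes on the left and neuronal genes on the right. The dashed line is the ratio limit of 0.66. Gfap, Vim and Nefm stay well below it under every setting. Nes (−0.73 to −0.62) and Nefl (−0.85 to −0.64) lie below it but nearer to it. Ina and Nefh lie between it and 0, and Synm lies just above 0.

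Over the whole array 746 genes were lower and 522 higher, so 58.8% of the called genes were lower. With a Z-score over all probes the counts were 455 lower and 502 higher, where lower genes were 47.5% of the calls. With the ratio limits alone 1367 were lower (6.21%) and 1589 higher (7.22%), and lower genes were 46.2% of the calls. The share of members that were lower, 5 of 8 detected, compares with 3.39% of all detected genes.

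**Figure D3:**
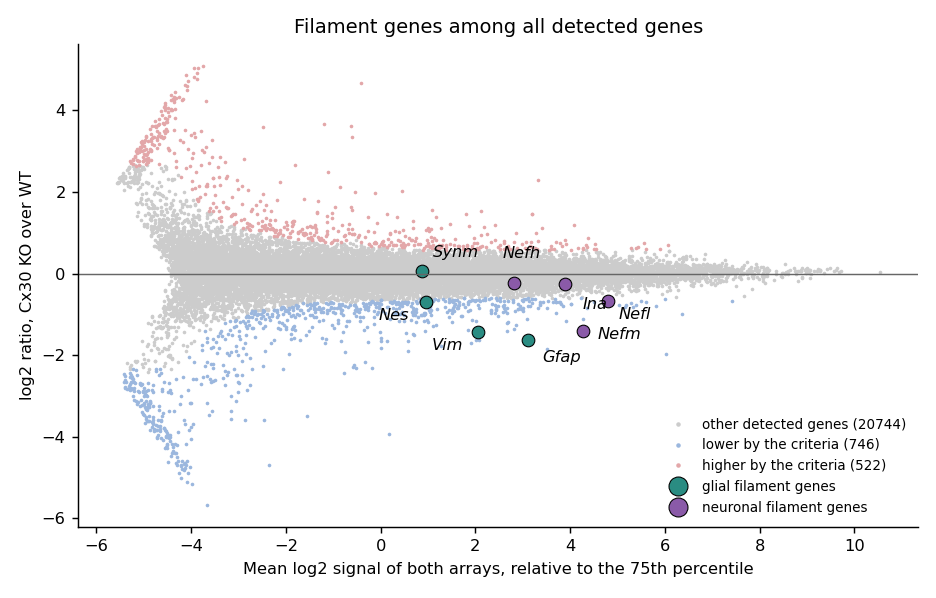
Log2 ratio of Cx30 KO over WT against the mean log2 signal of both arrays relative to the 75th percentile, for all 22012 detected genes. Blue and red points are the 746 lower and the 522 higher genes, and large circles are the 8 detected filament genes, all of them with a mean signal above the 75th percentile. Gfap, Vim, Nefm, Nefl and Nes lie at or beyond the lower edge of the cloud, and Synm, Nefh and Ina lie inside it.

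The genes most like *Gfap* were those with the nearest log2 ratio among 3685 genes detected on both arrays whose mean log2 signal was within 1 of that of *Gfap*. Likeness is the absolute difference of the log2 ratios and rests on 2 arrays only. The first was *Nupr1*, a stress-induced nuclear protein, with signals of 4174 in WT and 1502 in the KO (log2 ratio −1.40). *Cryab*, which encodes the small heat shock protein αB-crystallin, had 8733 and 2305 (−1.85). *Anxa2*, which encodes annexin A2, had 4488 and 1668 (−1.36). *Pvalb*, which encodes the calcium buffer parvalbumin, had 4533 and 1787 (−1.27), and *Car2*, which encodes carbonic anhydrase 2, had 3858 and 1590 (−1.21). All 5 were brighter in WT, which follows from their choice by ratio. *Cryab* and *Pvalb* also belong to lists described below.

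Most other intermediate filament genes that were detected met neither criterion. Of 15 keratin, lamin and other filament genes, 10 were detected, and the median log2 ratio was −0.07. Of the 10, 2 were lower (20%, against 3.39% of all detected genes) and 0 were higher (against 2.37%). *Bfsp2*, which encodes a beaded filament protein known from the lens, had signals of 785 in WT and 237 in the KO (−1.65), and its other probe had 279 and 85.2 (−1.64). *Krt12*, a keratin known from the corneal epithelium, had 944 and 448 (−1.0), and its other probe had 329 and 121 (−1.38). Both genes were dimmer in the KO at each of their probes. *Des*, *Krt7*, *Krt8*, *Krt19* and *Bfsp1* were not detected.

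Linker proteins tie filaments to junctions and to the rest of the cytoskeleton. Of 13 such genes, 11 were detected, 1 was lower, 2 were higher, and the median log2 ratio was 0.28. For the 9 of them well above background on both arrays it was 0.091. *Utrn*, which encodes utrophin, a relative of dystrophin, had signals of 3889 in WT and 2194 in the KO (−0.75), and its 4 other probes had log2 ratios between −0.55 and −0.33. *Evpl*, which encodes envoplakin, had 893 in WT and 1531 in the KO (0.85). *Fam83h*, which encodes a keratin-associated protein, was well above background only in the KO, at 55 against 18.8, and was at least 2.93-fold higher.

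Proteins that fold, modify, degrade or move filaments formed a list of 25 genes, of which 24 were detected, 5 were lower and 1 was higher, with a median log2 ratio of −0.10. *Cryab*, whose product binds GFAP and vimentin filaments, is given above. *Padi2*, which encodes an enzyme that citrullinates GFAP and myelin basic protein, had signals of 1108 in WT and 373 in the KO (−1.50). *Hspb8*, which encodes another small heat shock protein, had 558 and 225 (−1.24). Named after their values were seen, the remaining 2 lower genes were *Hspb1* (4414 in WT, 2239 in the KO, −0.91), which encodes a small heat shock protein, and *Bag3* (1398 and 815, −0.71), which encodes a co-chaperone of HSPB8.

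Among 18 transcription and signalling genes known to control *Gfap* and *Vim*, all detected, 2 were lower, 0 were higher, and the median log2 ratio was −0.19. *Osmr*, which encodes a receptor of oncostatin M, had signals of 1562 in WT and 799 in the KO (−0.90). Its other probes disagreed, with −1.45 at 1 and 0.09 at the other. *Fosl1*, which encodes an AP-1 subunit, had 96.3 in WT and 42.1 in the KO (−1.12). *Stat3*, *Sox9* and *Nfia*, named after their values were seen, had log2 ratios of −0.18, 0.03 and −0.40 and met neither criterion.

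The other cytoskeletal genes of neurons were called neither lower nor higher. Of 22 microtubule, spectrin and growth cone genes, all detected, 0 were lower and 0 were higher, with log2 ratios at their brightest probes between −0.49 and 0.34 and a median of −0.08. Other probes of some of these genes lay outside that range. *Tubb2b*, a β-tubulin, lay at the low end, with 14793 in WT and 10030 in the KO. *Map6*, a microtubule stabiliser, lay at the high end, with 9241 and 11156. Both were named for their place in the list, and the other *Map6* probe was below 0.

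**Figure D4:**
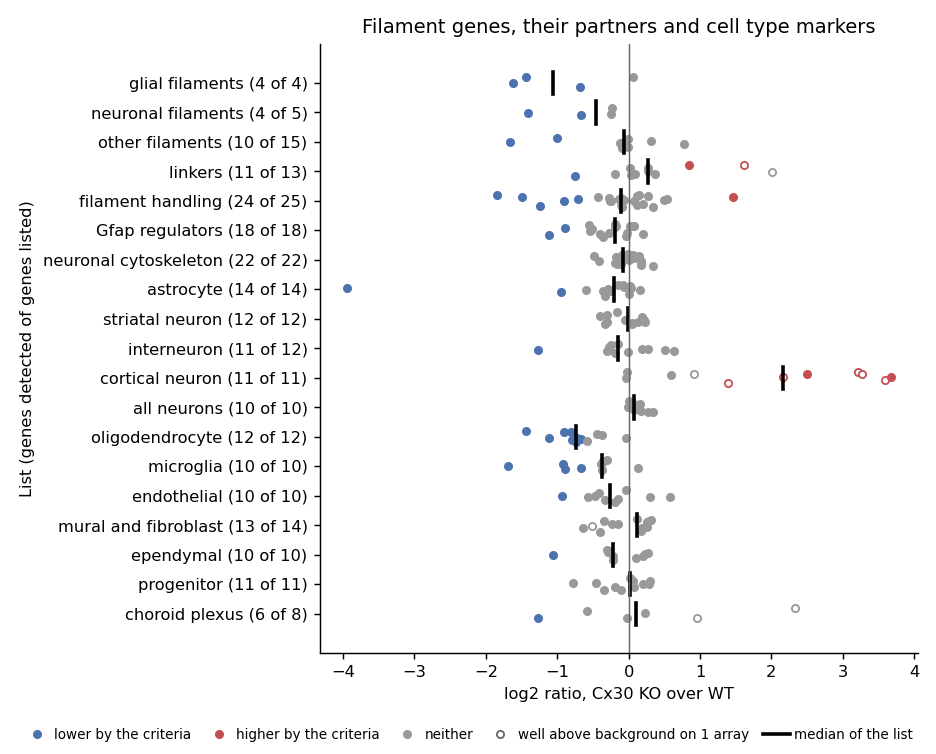
Log2 ratio of Cx30 KO over WT for each detected gene of 19 lists (the filament genes, their partners and cell type markers), with the median of each list as a black bar and the number detected of the number listed beside its name. Points are spread vertically at random to separate them, and open circles are genes well above background on 1 array only. The glial filament genes have the lowest median of the lists shown (−1.06), followed by the oligodendrocyte markers (−0.73), and the cortical neuron markers have the highest (2.16).

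Of the general markers of astrocytes, which exclude the filament genes, 12 were called neither lower nor higher. Of all 14 markers, each of them detected, 2 were lower, 0 were higher, and the median log2 ratio was −0.20. Their summed signal, in units of the 75th percentile of each array, was 563 in WT and 515 in the KO, and the brightest was *Aldoc*. Besides *Gjb6*, the lower gene was *Aqp4*, the water channel of astrocyte endfeet, with signals of 889 in WT and 438 in the KO (−0.95). Its other probes gave −1.06, 0.02 and a signal well above background in WT only. Of the 14 log2 ratios 10 were below 0 and 4 above. Named for their place in the list, *Atp1b2*, a sodium pump subunit, had the lowest ratio of the uncalled genes (13039 in WT, 8191 in the KO, −0.60) and lay just outside the ratio limit, and *Slc1a2*, a glutamate transporter, had the highest (9981 and 10657, 0.17).

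Markers of other cells differed between the pools beside the filament genes. Of 12 oligodendrocyte markers, all detected, 8 were lower and 0 were higher, with a median log2 ratio of −0.73. Their summed signal was 527 in WT and 344 in the KO. The lowest ratios were those of *Ugt8a* (383 in WT, 135 in the KO, −1.43), which makes the myelin lipid galactocerebroside, and *Cldn11* (11423 and 5001, −1.12), the tight junction protein of myelin. *Mog* (899 and 455, −0.91) and *Opalin* (521 and 283, −0.81), both myelin membrane proteins, followed. Named after their values were seen, *Mbp* and *Mag* were lower at their brightest probes (−0.73 and −0.74), but each had another probe above 0 (0.12 and 0.24). The remaining *Mbp* probe had −0.72. For the other lower genes of this list, any further probes were below 0. Of 10 microglia markers, all detected, 4 were lower and 0 were higher, with a median of −0.38. Their summed signal was 245 in WT and 234 in the KO. *Itgam*, the brightest and the only 1 of the 10 with a log2 ratio above 0 (0.13), made up most of both sums. The lower genes were *P2ry12* (145 and 42.8, −1.69), *Aif1* (1991 and 998, −0.93), *Tmem119* (1114 and 569, −0.90) and *Cx3cr1* (5897 and 3527, −0.67), known markers of resident microglia. The part of either cell type in the low filament ratios was not tested.

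Neuronal markers took several directions. Of 10 markers of all neurons and 12 markers of striatal projection neurons, all detected, 0 were lower and 0 were higher, with medians of 0.08 and −0.00. Their summed signals were 649 in WT and 696 in the KO for the former, with *Thy1* the brightest, and 1289 and 1343 for the latter, with *Penk* the brightest. Of 12 interneuron markers, 11 were detected and 1 was lower, with a median of −0.14. This was *Pvalb*, given above. *Calb2* was not detected, and *Sst* was the brightest. The summed signal was 132 in WT and 142 in the KO, most of it from *Sst* (log2 ratio 0.19). Of the 11 log2 ratios 7 were below 0 and 4 above.

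Of 11 markers of cortical excitatory neurons, all detected, 0 were lower and 7 were higher in the KO. Their median log2 ratio of 2.16 became 1.39 once genes detected on a single array were set at their bound. It was 0.64 with normexp background correction and 0.59 with genes detected on both arrays. The summed signal was 5.12 in WT and 8.68 in the KO, and the brightest was *Lamp5*. In WT 6 of the 11 were not well above background. *Neurod2*, a transcription factor of excitatory neurons, had signals of 49.0 in WT and 594 in the KO (3.67). *Slc17a7*, the vesicular glutamate transporter of cortical neurons, was at least 12.1-fold higher, and *Neurod6* at least 3.44-fold. In the pool with lower *Nefl* and *Nefm*, 7 of 11 markers of cortical neurons were higher, and markers of all neurons met neither criterion. In the same pool *Pvalb* (log2 ratio −1.27) and 8 of 12 oligodendrocyte markers were lower. The part of any of these in the neurofilament ratios was not tested.

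*Nefl* and *Nefm* are neighbours on chromosome 14, the chromosome of the targeted gene. Their brightest probes lie 31.9 kb apart, and 11.0 Mb distal of the brighter *Gjb6* probe. Within 1 Mb of the *Nefm* probe were 7 other detected genes, of which 1 was lower and 0 were higher. Their log2 ratios ran from −1.02 to 0.61, with a median of −0.12. The lower gene was *Dock5*, with signals of 158 in WT and 74.3 in the KO. Within 20 Mb on either side of *Gjb6*, 42 genes of the 444 detected were lower (9.46%) and 25 higher (5.63%), against 3.39% and 2.37% of all detected genes. Without *Gjb6*, *Nefl* and *Nefm*, 39 of 441 were lower (8.84%). *Gfap* and *Nefh* lie on chromosome 11, *Vim* on chromosome 2 and *Nes* on chromosome 3. Both windows were chosen after the values were seen. For genes this close to *Gjb6*, an effect of the missing Cx30 and one of sequence inherited together with the targeted allele cannot be told apart.

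**Figure D5:**
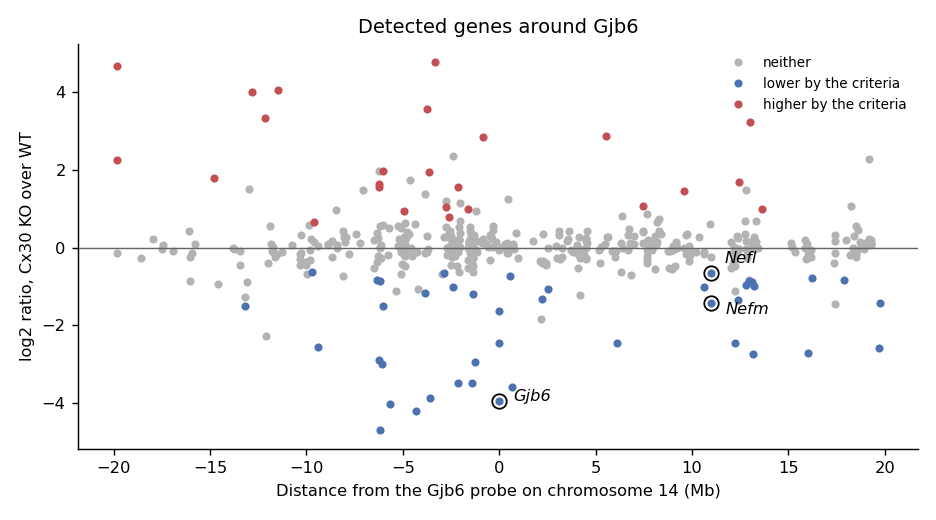
Log2 ratio of Cx30 KO over WT for the 444 detected genes within 20 Mb of the Gjb6 probe on chromosome 14, against their distance from it in Mb. Blue and red points are lower and higher by the criteria, and circles mark Gjb6, Nefl and Nefm. Nefl and Nefm lie 11.0 Mb from Gjb6, among genes that are mostly close to 0.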

How the data were processed

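The authors scanned 60-mer single-colour Agilent arrays and processed them with Feature Extraction, version 9.5.1.1 in the labels and 10.7.1.1 in the file headers. The deposited intensities are signals with background and spatial trend removed within the array. The deposited value table, an alternative here, holds intensities that the authors normalised between arrays, and 99.991% of them were within 1% of the quantile-normalised signals. Both arrays shared a slide and a scan. Control spots and flagged spots (48 in WT, 52 in the KO) were left out, which left 56605 probes. The share well above background was 56.6% on the WT and 58.2% on the KO array, and 0 were saturated. With 1 array for each genotype, precision is limited by their number.

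The log2 signal of each probe was the mean over its spots minus the 75th percentile of its array (401.2 in WT, 381.8 in the KO). Each gene is represented by the brightest of its probes that rose well above background on either array. The methods do not say over which probes their Z-scores were taken, so the 1000 nearest probes were used. A fold against a genotype below background is a lower bound, set against the lowest signal well above background there or the probe's own, if higher. Symbols of 2038 probes were updated from RefSeq. Members, lists and motifs were chosen with earlier results of these data known. Named genes are all members, each list's genes that met the criteria (where more than 4 did, the 4 with the largest log2 ratios in size), *Gjb6*, and the 5 genes most like *Gfap*. Some genes that this rule names are not reported here. The pipeline was tested on simulated data. Analyses used Python 3.11.15, numpy 2.4.6, pandas 2.3.3, R 4.3.3 and limma 3.58.1. Exons and untranslated regions of the probes were not assigned, since no genome of the arrays' build (mm9) was used here.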

Additional observations from a re-analysis of the deposited data

How the results depend on the processing

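Each log2 ratio and median was recomputed with quantile normalisation, scaling by the array median, normexp correction (offset 50), the authors' value table, no filter on dim probes, genes well above background on both arrays only, and the mean of a gene's probes. Calls were also recomputed with other Z-scores and ratio limits. The glial median stayed between −1.11 and −1.0, the neuronal median between −0.54 and −0.24 and their difference between −0.82 and −0.53. The neuronal median of −0.24 came without the filter, which brings in *Prph*. With a Z-score over all probes 2 glial genes and 1 neuronal gene were lower, as with ratio limits of 2 and 0.5. Among all genes, 328 were higher with genes detected on both arrays only. A Z-score over all probes gave 455 lower genes, the ratio limits alone gave 1367 lower and 1589 higher, and limits of 2 and 0.5 gave 428 and 340. The cortical marker median was 0.64 with normexp and 0.59 with genes detected on both arrays, and the choroid plexus median was −0.30 and the linker median 0.091 with the latter. Other medians near 0 had no settled sign: mural and fibroblast markers ran from −0.090 to 0.14, filament handling genes from −0.15 to 0.0071, striatal neuron markers from −0.048 to 0.015 and progenitor markers from −0.034 to 0.027. When probes were averaged, the *Gfap* regulators had −0.060, the neuronal cytoskeleton −0.037 and the interneuron markers −0.032. The ratio limits and the filters account for the changes under them by construction, and the cause of the other changes was not tested. No direction of a member reversed. No paired analysis was possible because each genotype has 1 array, and for the same reason no replicate could be left out. Genes below background have no level, and neither mice nor dissections were replicated.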

Other observations

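Markers of vessels, ventricle lining and progenitors were also measured, since several of these cells contain vimentin or nestin. Of 10 endothelial markers, all detected, 1 was lower and 0 were higher, with a median log2 ratio of −0.26. Their summed signal, in units of the 75th percentile of each array, was 49.1 in WT and 43.2 in the KO, and the brightest was *Ly6c1*. The lower gene was *Flt1*, a VEGF receptor (3414 in WT, 1708 in the KO, −0.93), but its other probes had −0.15 and 0.52. Of 14 mural cell and fibroblast markers, 13 were detected and 0 met the criteria, with a median of 0.11 (−0.090 with normexp), summed signals of 25.0 and 27.2, and *Acta2* the brightest. *Lum* was not detected.

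Of 10 ependymal markers, all detected, 1 was lower, with a median of −0.22, summed signals of 8.05 in WT and 6.66 in the KO, and *Rarres2* the brightest. This was *Ccdc153*, a gene of motile cilia (447 and 205, −1.06). Of 8 choroid plexus markers, 6 were detected and 1 was lower, with a median of 0.11 (−0.30 with genes detected on both arrays), summed signals of 4.07 and 3.64, and *Clic6* the brightest. This was *Ttr*, which encodes transthyretin (304 and 120, −1.27). *Aqp1* and *Sostdc1* were not detected. Of 11 progenitor, neuroblast and dividing cell markers, all detected, 0 met the criteria, with a median of 0.01, summed signals of 6.14 and 5.72, and *Sox2* the brightest. The part of these cells in the *Vim* and *Nes* ratios was not tested.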
